A study of Arabidopsis thaliana with 6 samples.

Results

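Nitrate is taken up from the medium by transporters of the NRT1 and NRT2 families, reduced to nitrite in the cytosol by nitrate reductase, and reduced further to ammonium in plastids by nitrite reductase. In Arabidopsis the genes for these steps are known to respond to nitrate, ammonium, sugar, light and time of day, and NRT2 transporters of roots need the small partner protein NRT3.1 to work. Transcripts of 8 such genes, chosen by their locus codes, were followed here out of 27978 genes in a deposited RNA-seq count table: NIA1 (AT1G77760) and NIA2 (AT1G37130) for nitrate reductase, NIR1 (AT2G15620) for nitrite reductase, the transporter genes NRT1.1 (AT1G12110), NRT1.5 (AT1G32450), NRT2.1 (AT1G08090) and NRT2.2 (AT1G08100), and NRT3.1 (AT5G50200).

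The 6 libraries came from wild-type Columbia seedlings in 3 groups of 2. Seedlings aged 4 days were moved from Murashige and Skoog plates to plates with the natural auxin indole-3-acetic acid (IAA) at 1 nM or melatonin (MT) at 10 nM, for 7 days by the sample titles, and the control treatment was ethanol at 0.1%, the solvent of both compounds. Conditions listed for all 6 libraries were 3% sucrose, 0.8% agar, 23 degrees C, and 16 h light and 8 h dark. Light was at 100 umol per square metre per second. The series title asks whether melatonin promotes root growth through IAA. The headers of the control columns read 72 h while the sample titles read 7 days, so that plant age is uncertain in every comparison with control. The tissue is seedlings in the sample labels and rosette leaves in the series text.

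Total counts ran from 40087221 to 65558371 per library. Replicates of a group differed by more than sampling noise (chi-square divided by degrees of freedom, 9.16 to 18.2). No label names separate cultures, so the p-values here reflect the spread among these libraries alone, and that spread may be technical. MT replicate 1 stood apart by its plastid-encoded transcripts, which took 0.285% of its counts against 0.0196% to 0.0244% elsewhere. Root markers were read in every library at low levels: 9 genes of the root endodermis summed to 20.1 and 28.3 CPM (reads per gene, scaled to the size of each library) in control, 33.8 and 35.7 CPM with IAA, and 72.8 and 41.5 CPM with MT, and 7 root hair genes to 5.73 and 12.01, 15.9 and 21.9, and 31.3 and 15.6 CPM. None of these 16 genes was at 0 in any library. Summed CPM of 9 photosynthesis genes ran from 42767 to 46012. In whole tissue, fewer cells of a type and less RNA per cell cannot be told apart.

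The reductase genes were among the most abundant transcripts of these libraries, and NRT2.1 and NRT2.2 were nearly silent in them. The 9 root endodermis genes summed to 20.1 to 72.8 CPM and the 9 photosynthesis genes to 42767 to 46012 CPM. The root share of the RNA was not estimated, and in whole tissue the levels within roots were not measured. Levels between genes are given as mean CPM over the 6 libraries per kilobase of coding length, ranked among 26710 genes with a coding length. On that scale NIA2, the main nitrate reductase gene of leaves, was at 662 and ranked 153. NIA1, the other nitrate reductase gene, was at 269 and ranked 553, next to NIR1 at 260 and rank 574. NRT1.1, a transporter that works at low and high nitrate and also senses it, was at 62.6, and NRT1.5, which loads nitrate into the xylem for transport from root to shoot, was at 41.6. NRT3.1 was at 14 and NRT2.1, the main high-affinity transporter of roots, at 0.490, with rank 19516. On this scale the order of NIA1 and NIR1 differed between groups. NIA1 lay above NIR1 in control (means of 304 and 262) and below it under IAA (222 and 240), without overlap of the libraries. Under MT (281 and 277) the libraries overlapped. In CPM, without division by coding length, NIA1 lay above NIR1 in every library, also with IAA (625 and 598 against 421 and 424 CPM).

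NRT2.2 had a count of 0 in all 6 libraries. With 3 counts per library taken as the limit for a count of 0, the level could be up to 0.0463 to 0.0748 CPM depending on the library, and such floors cover counting error only. NRT2.2 lies directly beside NRT2.1 on chromosome 1 and is its close copy. In the TAIR10.1 annotation, 174 of the 1660 stretches of 50 bases in its transcript also occur exactly in that of NRT2.1, and 1486 do not. How reads that match both genes were counted is not given in the sources used here, so the split between these neighbours is uncertain for the shared stretches. NIA1 and NIA2 shared 0 such stretches.

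NIA1 was the only member that passed the test between IAA and control. It was at 880 and 796 CPM in the control libraries, 625 and 598 CPM with IAA, and 735 and 815 CPM with MT. Both IAA libraries lay below all 4 others, whereas the control and MT libraries overlapped. With IAA, NIA1 was lower by 27.0% (log2 fold change -0.45 ± 0.075 SE, 95% interval -0.63 to -0.28, adjusted p = 0.0417, quasi-likelihood test of edgeR, Benjamini-Hochberg adjusted over 21267 genes). Of all genes tested, 0.701% were called in this comparison and 0.118% were called lower, and of the 7 members tested 1 was called, lower. The call rested on all 4 libraries concerned: the adjusted p was 0.347 without control replicate 1, 0.0602 without control replicate 2, 0.112 without IAA replicate 1 and 0.253 without IAA replicate 2, with log2 fold changes from -0.54 to -0.39. It also ended in edgeR's test when only these groups were fitted (0.0501) and with a replicate block (0.0667). The call held in edgeR with RLE factors (0.0393), library totals alone (0.0303), a filter of 5 CPM (0.0370) and no filter on low counts (0.00908). DESeq2 called NIA1 as well (adjusted p = 3.29e-06). In the joint test for any difference among the 3 groups, NIA1 had an adjusted p of 0.0502, where 1.33% of genes were called.

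NIA2 leaned the same way without passing. It was at 2128 and 1980 CPM in control, 1724 and 1586 CPM with IAA, and 1720 and 1799 CPM with MT. All 4 treated libraries lay below both control libraries. The log2 fold change was -0.31 ± 0.067 (SE) with IAA, with a 95% interval of -0.46 to -0.16 and an adjusted p of 0.103 in edgeR's test. With MT it was -0.22 ± 0.067, with an interval of -0.38 to -0.071 and an adjusted p of 0.187. Without a filter on low counts NIA2 passed with IAA (adjusted p = 0.0400), and DESeq2 called it as well (adjusted p = 0.00123). Libraries that did not overlap and were lower than control were common over all genes, at 20.2% for IAA and 22.2% for MT.

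NIR1, whose enzyme reduces nitrite and keeps it from building up, varied least of the 7 members tested. It was at 451 and 472 CPM in control, 421 and 424 CPM with IAA, and 474 and 501 CPM with MT. The IAA libraries were the lowest and the MT libraries the highest of the 6, and in 22.5% of all genes both MT libraries likewise lay above both control libraries. The differences were small, with log2 fold changes of -0.13 ± 0.060 with IAA (95% interval -0.26 to 0.011, adjusted p = 0.499 in edgeR's test) and 0.080 ± 0.060 with MT (interval -0.058 to 0.22, adjusted p = 0.636). These intervals leave room for at most a 16.8% fall with IAA and a 16.3% rise with MT.

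**Figure D1:**
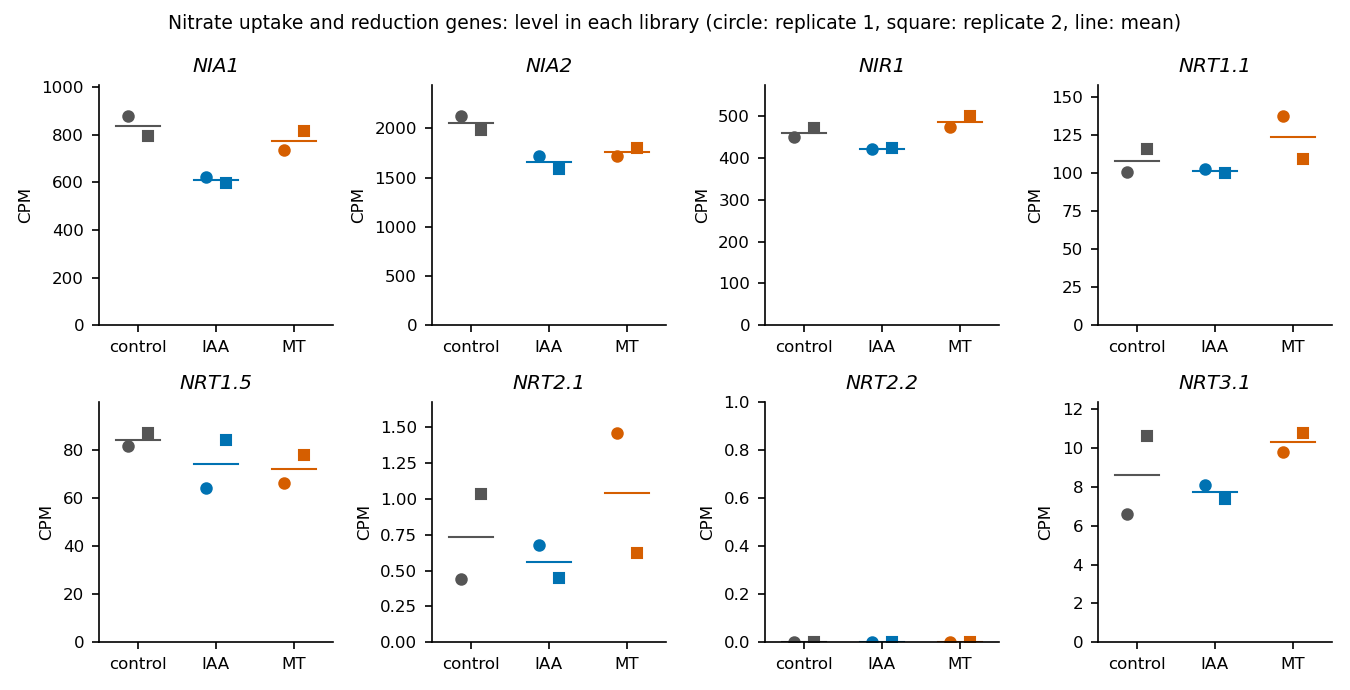
Level of each of the 8 genes in CPM (vertical axes from 0, one scale per gene) in control, IAA and MT libraries; circles are replicate 1, squares replicate 2 and lines group means. NIA1 at 625 and 598 CPM with IAA lies below its other 4 libraries, the control replicates of NRT2.1 lie at 0.441 and 1.03 CPM and its MT replicates at 1.46 and 0.623 CPM, and NRT2.2 is at 0 throughout.

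Ratios between genes within a library do not depend on how libraries are scaled. NIA2 and NIA1 have the same coding length, 2754 bases. NIA2 had 2.42 and 2.49 times the counts of NIA1 in control, 2.76 and 2.65 times under IAA, and 2.34 and 2.21 times under MT. The 3 groups did not overlap, with IAA highest and MT lowest. NIR1 counts were 15.0% and 17.0% of the summed NIA1 and NIA2 counts in control, 17.9% and 19.4% under IAA, and 19.3% and 19.2% under MT, so that both treatments lay above control and overlapped each other. Together the 8 genes took 0.360% and 0.347% of all counts in control, 0.291% and 0.282% under IAA, and 0.319% and 0.332% under MT. With 2 libraries against 2, an exact two-sided permutation test cannot give a p below 0.333, so these ratios are given as values only.

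**Figure D2:**
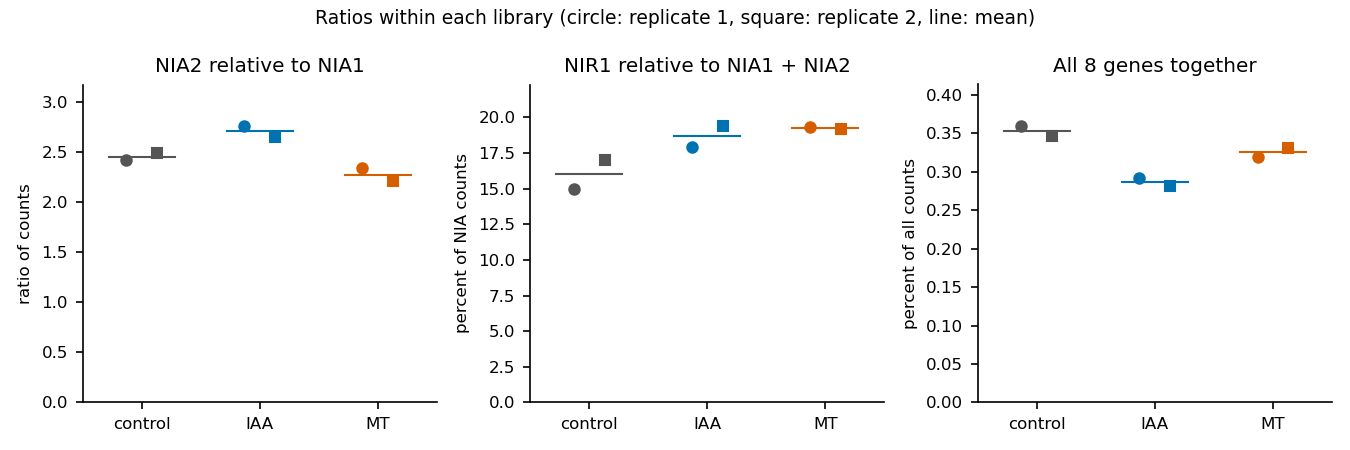
Ratios in each library, vertical axes from 0: NIA2 counts per NIA1 count, NIR1 counts as a percentage of NIA1 plus NIA2 counts, and the share of all counts in the 8 genes. The NIA2 per NIA1 ratio is highest in the IAA libraries (2.76 and 2.65) and lowest in the MT libraries (2.34 and 2.21).

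Of the 4 transporter and partner genes tested, 0 passed edgeR's quasi-likelihood test against control with either treatment. Of them 0 had an unadjusted p under 0.05 and 0 were called by DESeq2. Over all genes, edgeR called 0.701% with IAA and 1.89% with MT, and 11.0% and 13.2% had an unadjusted p under 0.05. DESeq2 called 470 of 19205 genes with IAA and 823 of 21267 with MT. NRT1.1 was at 101 and 116 CPM in control, 103 and 99.8 CPM with IAA, and 138 and 109 CPM with MT. Control overlapped both treatments, and the highest value was that of MT replicate 1. The log2 fold change was -0.096 ± 0.11 (SE) with IAA (adjusted p = 0.816) and 0.19 ± 0.11 with MT (adjusted p = 0.514), and the latter was 0.016 without MT replicate 1. NRT1.5 was at 81.4 and 86.8 CPM in control, 64.2 and 83.9 CPM with IAA, and 66.3 and 77.9 CPM with MT. Both MT libraries lay below control, whereas the IAA libraries spanned nearly the whole range. Its log2 fold changes were -0.19 ± 0.13 with IAA (adjusted p = 0.656) and -0.22 ± 0.13 with MT (adjusted p = 0.508). By the annotation the end of NRT1.5 overlaps AT1G32440 on the other strand by 16 bases, and the use of strand in counting is not given in the sources used here.

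NRT2.1 and NRT3.1 encode the transporter and its partner in high-affinity uptake, and their control replicates lay far apart. NRT2.1 had 23 and 49 reads in control, 44 and 20 under IAA, and 72 and 25 under MT, which is 0.441 and 1.03, 0.678 and 0.448, and 1.46 and 0.623 CPM. The exact 95% Poisson intervals, for counting error only, were 0.279 to 0.661 and 0.764 to 1.37 CPM for the control libraries and 1.14 to 1.83 and 0.403 to 0.920 CPM for the MT libraries. Neither pair of replicates overlapped within counting error. The log2 fold change of NRT2.1 was therefore loosely bounded, at -0.37 ± 0.59 with IAA (95% interval -1.72 to 0.98, adjusted p = 0.880 in edgeR's test) and 0.51 ± 0.58 with MT (interval -0.81 to 1.83, adjusted p = 0.773). It was 0.35 with IAA without control replicate 2 and -0.23 with MT without MT replicate 1, the opposite sign in each case.

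NRT3.1 was at 6.59 and 10.6 CPM in control, 8.09 and 7.34 CPM with IAA, and 9.79 and 10.7 CPM with MT. The control libraries spanned all of the IAA values. Its log2 fold changes were -0.15 ± 0.21 with IAA (95% interval -0.62 to 0.32, adjusted p = 0.852 in edgeR's test) and 0.26 ± 0.21 with MT (interval -0.21 to 0.73, adjusted p = 0.660). Counts of NRT3.1 were 15.0 and 10.3 times those of NRT2.1 in control, 11.9 and 16.4 times under IAA, and 6.72 and 17.2 times under MT.

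The root marker lists shared some of the extreme libraries of the transporter and partner genes. Control replicate 1 was the lowest library in NRT2.1 (narrowly), in NRT3.1 and in both root lists. MT replicate 1 was the highest in NRT1.1, in NRT2.1 and in both root lists. The lowest NRT1.1 library was IAA replicate 2 (99.8 CPM), and the highest NRT3.1 library was MT replicate 2 (10.7 CPM). NRT1.5 went otherwise, lowest in IAA replicate 1 (64.2 CPM) and highest in control replicate 2 (86.8 CPM), with 66.3 CPM in MT replicate 1. IAA libraries had more of both root lists than control, while their NRT1.1, NRT2.1 and NRT3.1 means were below those of control. With MT, 2 of the 9 endodermis and 1 of the 7 root hair genes rose in edgeR's test, beside 1.67% of all genes. At an unadjusted p under 0.05 were 7 and 4, beside 13.2% of all genes. DESeq2 called 4 and 3 higher, beside 664 of 21267 genes. With IAA 0 of the 16 were called, beside 0.583% of all genes called higher. An unadjusted p under 0.05 was found for 4, beside 11.0% of all genes. DESeq2 called 1 in each list higher, beside 319 of 19205 genes. How many of all genes had their extremes in these same libraries was not counted. The part of root tissue in the transporter values was not tested.

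**Figure D3:**
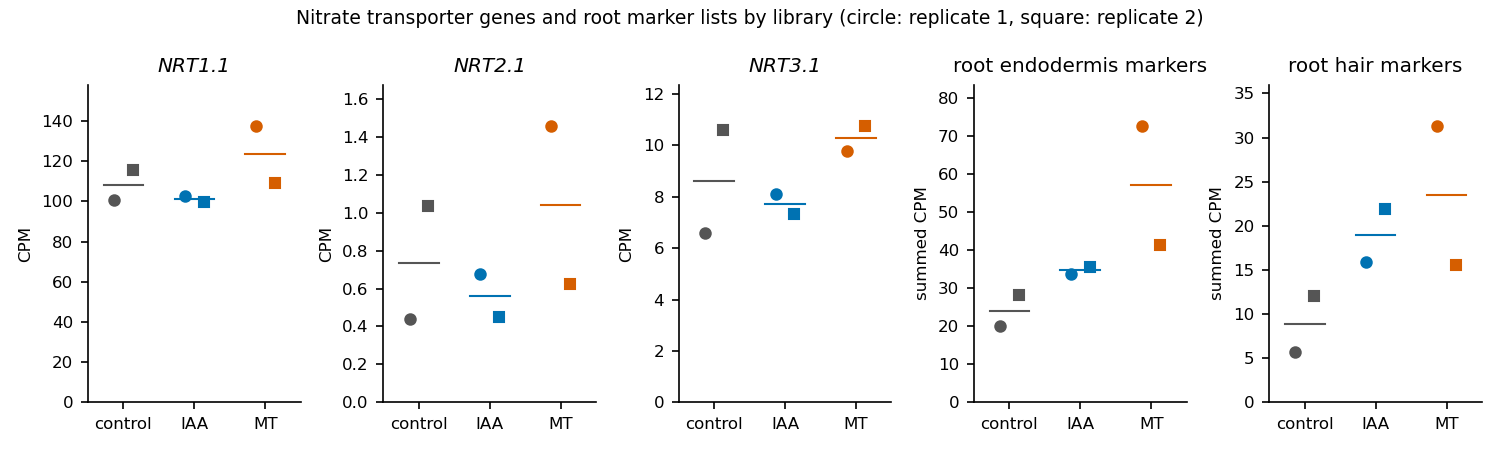
NRT1.1, NRT2.1 and NRT3.1 in CPM beside the summed CPM of 9 root endodermis and 7 root hair marker genes, by group; circles are replicate 1, squares replicate 2, lines group means, and axes start at 0. MT replicate 1 is highest in NRT1.1, NRT2.1 and both marker lists, and control replicate 1 is lowest in NRT2.1 (narrowly), NRT3.1 and both lists. NRT1.1 is lowest in IAA replicate 2 and NRT3.1 is highest in MT replicate 2.

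With MT against control, no member passed: 0 of 7 were called by edgeR's quasi-likelihood test, where 1.89% of all genes were (1.67% higher and 0.226% lower). An unadjusted p under 0.05 was found for 1 member (NIA2), beside 13.2% of all genes. DESeq2 called 0 members, beside 823 of 21267 genes. Of the 7 members, 4 had positive and 3 negative log2 fold changes, with a median of 0.080 beside -0.0031 over all genes tested. With IAA all 7 were negative, with a median of -0.19 beside 0.014 over all genes. Both comparisons share the control libraries. For NIA1 the MT interval ran from -0.28 to 0.059 on the log2 scale, a change between a 17.9% fall and a 4.16% rise.

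MT and IAA, at doses that differ, were also set against each other. In this comparison 6 of the 7 members had higher values with MT, with a median log2 difference of 0.29 beside -0.0069 over all genes tested. In edgeR's test 0 members were called, where 0.0188% of all genes were. An unadjusted p under 0.05 was found for 3 members, beside 10.5% of all genes. DESeq2 called 1 member, NIA1 (adjusted p = 0.00428), beside 257 of 19205 genes. NIA1 was higher with MT by 0.34 ± 0.075 (95% interval 0.17 to 0.51, adjusted p = 0.229), NIR1 by 0.21 ± 0.060 (interval 0.069 to 0.34, adjusted p = 0.331) and NRT1.1 by 0.29 ± 0.11 (interval 0.038 to 0.54, adjusted p = 0.423; 0.11 without MT replicate 1). By edgeR's adjusted test the level of NIA1 with IAA is thus not shown to differ from that with MT, whereas DESeq2 called this difference. Libraries did not overlap and were higher with MT in 4 members, NIA1, NIR1, NRT1.1 and NRT3.1, and in 19.8% of all genes.

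**Figure D4:**
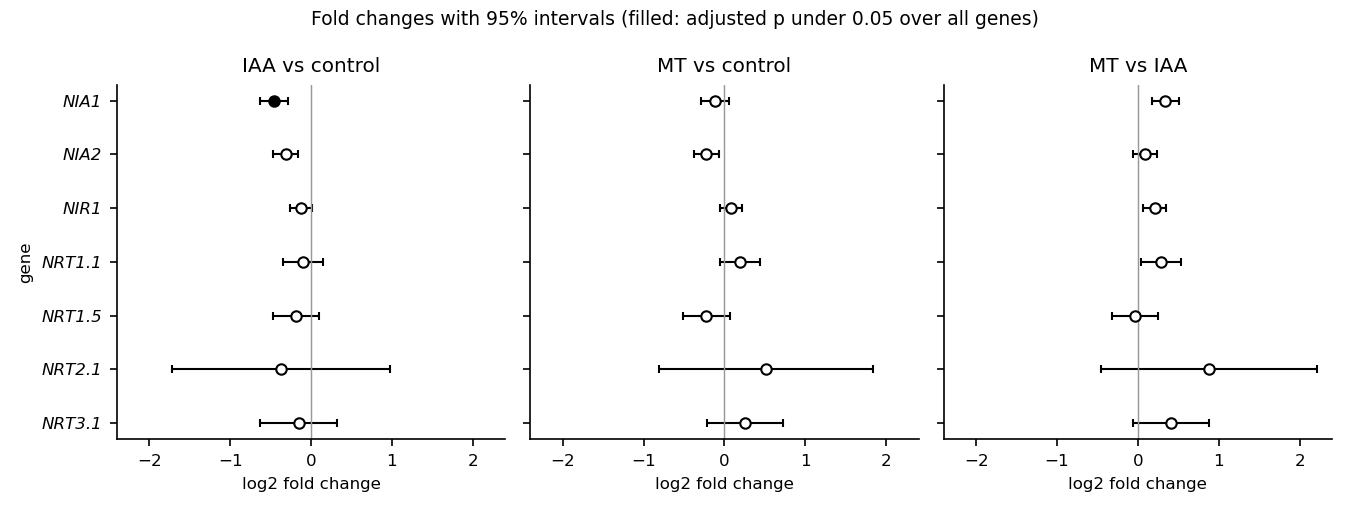
Log2 fold changes of the 7 tested genes (horizontal axes) with 95% intervals from the quasi-likelihood fit, for IAA against control, MT against control and MT against IAA; filled points passed an adjusted p of 0.05 over all genes. NIA1 with IAA (-0.45) is the filled point, and the intervals of NRT2.1 are the widest.

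Precision differed among members with their depth and replicate spread. For MT against control the 95% interval reached to either side by 0.17 on the log2 scale for NIA1, 0.15 for NIA2 and 0.14 for NIR1, narrower than the median of 0.29 over all genes. It was 0.25 for NRT1.1, 0.29 for NRT1.5, 0.47 for NRT3.1 and 1.32 for NRT2.1. For NRT2.1 a log2 change of 1 in at least 1 direction lay inside the interval in all 3 comparisons, so such a change was not excluded in that direction.

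The other genes of nitrogen transport and assimilation were described from 5 lists with 92 genes, 91 of them in the table. Of the 17 other nitrate transporter genes tested 1 rose with IAA and 1 with MT, beside 0.583% and 1.67% of all genes called higher. In both cases, called by edgeR's test, this was NRT2.7, a transporter of the vacuole membrane known from seeds. DESeq2 called 1 of the list higher with IAA, 2 higher and 1 lower with MT, and 1 higher with MT than with IAA. Over all genes these DESeq2 counts were 319 higher of 19205, 664 higher and 159 lower of 21267, and 186 higher of 19205. At an unadjusted p under 0.05 in edgeR's test were 4 with IAA, 5 with MT and 2 between them. The shares of all genes were 11.0%, 13.2% and 10.5%. NRT2.7 was at 22.2 and 24.1 CPM in control, 38.0 and 32.3 CPM with IAA, and 39.4 and 39.9 CPM with MT. All treated libraries lay above control. The log2 fold change was 0.60 ± 0.098 (SE) with IAA (adjusted p = 0.0374) and 0.78 ± 0.099 with MT (adjusted p = 0.00605, quasi-likelihood test of edgeR, Benjamini-Hochberg adjusted). The call with IAA ended when only the compared groups were fitted (adjusted p = 0.0707) and without any 1 of the 6 libraries (0.0623 to 0.366), and the call with MT without control replicate 1 (0.0880). Among NRT2 relatives, NRT2.4 was also at a count of 0 in every library, and the NRT2 genes other than NRT2.7 did not exceed 1.46 CPM in any library.

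Of the 35 nitrate signalling genes 1 rose with IAA and 1 with MT, beside 0.583% and 1.67% of all genes called higher. In both cases this was CPK32, a calcium-dependent protein kinase that phosphorylates the nitrate response factor NLP7. DESeq2 called 1 higher and 2 lower with IAA, 1 higher with MT, and 2 higher with MT than with IAA. Over all genes these DESeq2 counts were 319 higher and 151 lower of 19205, 664 higher of 21267, and 186 higher of 19205. An unadjusted p under 0.05 in edgeR's test was found for 6 of the 35 with IAA, 9 with MT and 10 between MT and IAA. Over all genes these shares were 11.0%, 13.2% and 10.5%. CPK32 was at 47.0 and 51.2 CPM in control, 70.3 and 70.5 CPM with IAA, and 100.2 and 99.6 CPM with MT. The 3 groups did not overlap, and replicates lay close together. It rose by 0.52 ± 0.066 on the log2 scale with IAA (adjusted p = 0.0187) and by 1.02 ± 0.067 with MT (adjusted p = 0.000393, edgeR's quasi-likelihood test). The call with IAA ended when control replicate 1 was left out (0.214), and likewise for IAA replicate 1 (0.0801) and for IAA replicate 2 (0.0996). NLP7 itself was at 85.8 and 87.0 CPM in control, 91.6 and 92.9 CPM with IAA, and 86.2 and 91.1 CPM with MT. Against each other, MT and IAA differed in CPK32 by 0.51 ± 0.066, which did not pass in edgeR's test (adjusted p = 0.103) but passed with no filter on low counts (0.0302) and in DESeq2 (4.93e-07).

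TGA4 and BT2, both named after their values were seen, had the next lowest p in the signalling list. TGA4, a bZIP factor that regulates NRT2.1, was at 31.8 and 32.5 CPM in control, 25.1 and 24.7 CPM with IAA, and 35.4 and 33.4 CPM with MT. Its libraries with IAA were the lowest of the 6, and its log2 fold change was -0.37 ± 0.079 (SE, adjusted p = 0.103 in edgeR's test). Of the 35 signalling genes, 10 had both IAA libraries below both control libraries and 9 had both above. Of all 21267 genes tested, these were 4287 and 5009. BT2, a nitrate-responsive BTB protein gene, was at 57.6 and 52.5, 41.0 and 39.4, and 48.4 and 41.9 CPM in control, IAA and MT, with a log2 fold change of -0.45 ± 0.089 with IAA (adjusted p = 0.0738).

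No gene of ammonium transport and assimilation passed the test. In edgeR's test 0 of 19 were called with IAA, with MT or between them, beside 0.701%, 1.89% and 0.0188% of all genes. At an unadjusted p under 0.05 were 1, 5 and 4, beside 11.0%, 13.2% and 10.5% of all genes. DESeq2 called 1, 0 and 0, beside 470 of 19205, 823 of 21267 and 257 of 19205 genes. The lowest p was that of ASN2, an asparagine synthetase gene, at 488 and 475 CPM in control, 421 and 379 CPM with IAA, and 451 and 452 CPM with MT (log2 fold change with IAA -0.27 ± 0.066 SE, adjusted p = 0.163). The group medians of the log2 fold changes were 0.019 with IAA and -0.030 with MT.

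Genes that supply reductant and siroheme to nitrite reduction gave 0 of 9 calls in each comparison, beside 0.701%, 1.89% and 0.0188% of all genes. An unadjusted p under 0.05 was found for 0, 2 and 1, beside 11.0%, 13.2% and 10.5% of all genes. DESeq2 called 0, 1 and 0, beside 470 of 19205, 823 of 21267 and 257 of 19205 genes. RFNR2, a root-type ferredoxin reductase, was at 40.3 and 48.9 CPM in control, 49.8 and 51.1 CPM with IAA, and 70.6 and 56.6 CPM with MT. It too was highest in MT replicate 1, and its log2 fold change with MT was 0.51 ± 0.12 (SE, adjusted p = 0.0876 in edgeR's test) and 0.35 without that library. Of the 7 molybdenum cofactor genes, whose product nitrate reductase carries, 0 were called in each comparison, and DESeq2 called 0. At an unadjusted p under 0.05 were 1, 1 and 0, beside the same shares of all genes. MOT1, a molybdate transporter gene, had the lowest p, at 8.20 and 7.38 CPM in control, 5.64 and 5.28 CPM with IAA, and 6.01 and 5.86 CPM with MT (log2 fold change -0.51 ± 0.15 with IAA, adjusted p = 0.235).

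**Figure D5:**
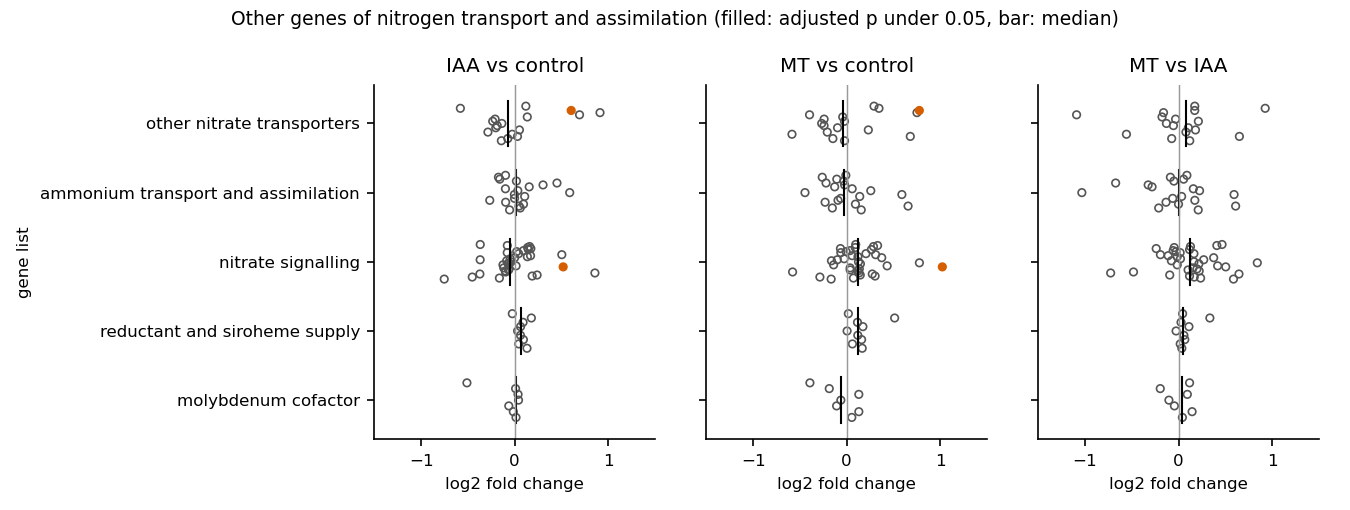
Log2 fold changes (horizontal axes) of the tested genes of 5 nitrogen lists in the 3 comparisons; each circle is a gene, filled circles passed an adjusted p of 0.05 over all genes, and bars are list medians. NRT2.7 and CPK32 are the filled circles with IAA and with MT, and no gene is filled between MT and IAA.

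Clock genes were read as markers of harvest time, since nitrate reductase transcripts follow a daily rhythm. Of 9 clock genes 0 were called in any comparison by edgeR's test, with 2 for IAA, 1 for MT and 5 between MT and IAA at an unadjusted p under 0.05, and DESeq2 called 0, 0 and 1. Over all genes tested, the share at an unadjusted p under 0.05 was 11.0% for IAA, 13.2% for MT and 10.5% between MT and IAA. Of all genes edgeR called 0.701%, 1.89% and 0.0188%, and DESeq2 called 470 of 19205, 823 of 21267 and 257 of 19205. The log2 differences of the 9 clock genes between MT and IAA ran from -0.098 to 0.90, with a median of 0.23. The part of harvest time in the NIA1 values was not tested.

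Genes with the profiles most like those of NIA1, NRT1.1 and NRT2.1 were found by the root mean square difference of centred log2 CPM over the 6 libraries, among genes with a mean of at least 10 CPM. Nearest to NIA1 were AT4G36850 (0.040), AT1G76700 (0.047) and ATSPS4F, a sucrose phosphate synthase gene (0.051), against a standard deviation of 0.22 for NIA1 itself. ATSPS4F was at 240 and 241 CPM in control, 181 and 171 CPM with IAA, and 213 and 224 CPM with MT. NRT1.1 had UGT73B1 (0.019), FQR1 (0.022) and UKL2 (0.034) closest to it, and 317 genes lay within 0.1. For NRT2.1 the nearest was the peroxidase gene AT5G64120, at a larger distance of 0.24, followed by GulLO2 (0.24) and AT4G15610 (0.25). All 3 of those were lowest in control replicate 1 and highest in MT replicate 1, as NRT2.1 was (narrowly for its lowest). They were chosen for likeness to NRT2.1 over these same 6 libraries, so this match is no further evidence.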

How the data were processed

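The authors deposited 1 table of raw read counts per gene for the 6 libraries, with no normalization. The submitters' processing notes name TopHat2 2.0.12, Bowtie2 2.2.3, DESeq and HTSeq 0.6.1 without saying what each did. Build, annotation, kit and strand setting were not given in the sources used here. All 8 members matched the TAIR10.1 annotation, used for names, neighbours, coding length and shared stretches.

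Genes were filtered with filterByExpr by group (21267 kept, 6711 removed), scaled by TMM factors and tested with edgeR 4.0.16 (R 4.3.3, glmQLFit and glmQLFTest) with all 6 libraries in 1 fit (common biological coefficient of variation 0.123; degrees of freedom 3 residual, 5.61 prior). Adjustment followed Benjamini-Hochberg over all genes tested, with a threshold of 0.05. CPM uses TMM-scaled totals. SE is the log2 fold change divided by the root of F, and 95% intervals use the t distribution with the fit's degrees of freedom. The script was tested on simulated data.

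Members and lists were chosen with earlier results of these data known. Named genes were all 8 members; of each other pathway list, up to 6 members past the threshold or else that with the lowest p; and the 3 genes most like NIA1, NRT1.1 and NRT2.1. Marker lists (root, photosynthesis, clock) were given as summaries only. Genes named outside this rule, with values known, were NLP7, NRT2.4, TGA4 and BT2. NRT3.2 is not analysed here. Alternatives were RLE factors, library totals alone, DESeq2 1.42.0, other filters, fits of the compared groups, a replicate block and leaving out each library.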

Additional observations from a re-analysis of the deposited data

How the results depend on the processing

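Of 270 member values under alternatives, 255 kept their direction and their side of the threshold. Most of the 270 belonged to members not called in the main test, which had only to stay uncalled. For NIA1 with IAA, the only member call, 5 alternatives other than leaving out a library kept the call and 2 ended it. With a library left out, its log2 fold change ran from -0.54 to -0.39. The members called with IAA were 1 in the main test, 2 with DESeq2 and with no filter on low counts, 0 with only the groups compared, and 0 to 1 with a library left out; between MT and IAA they were 1 with DESeq2. All genes called with IAA numbered 470 with DESeq2, 268 with no filter and 81 with only the groups compared, and 17 to 109 with a library left out. With MT, DESeq2 called 823 genes, and 112 to 447 were called with a library left out; between MT and IAA the counts were 257, 13 with no filter, and 0 to 55. Causes were not tested; fewer libraries also measure the spread less well. Signs turned with a library left out for members not called: NRT2.1 with IAA (-0.87 to 0.35) and with MT (-0.23 to 1.23), NRT3.1 with IAA (-0.46 to 0.21) and with MT (-0.054 to 0.62), and NRT1.5 between MT and IAA (-0.22 to 0.17).

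Replicate numbers were shared across groups. Over 21267 genes, deviations of same-numbered libraries had correlations of 0.033 for control and IAA, -0.15 for control and MT and 0.012 for IAA and MT. These values show no pairing by number, but with 2 libraries per group they cannot settle it. With a replicate block, 0 members were called with IAA (NIA1 adjusted p = 0.0667; NRT2.7 0.0542), and 137, 351 and 5 genes were called in the 3 comparisons. With the MT numbers crossed, chosen after seeing the data, the block gave 535 calls for MT against control. At this depth nothing can be said of NRT2.2 below the limit for a count of 0.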
